A study of Mus musculus with 30 samples.

Results

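Collagen chains other than type VI were followed by RNA sequencing across 30 subcutaneous B16F10 tumors, a transplanted mouse melanoma line. The members are the genes whose symbol is Col, a number, the letter a and a number, with the Col6a genes left out. They make up 35 of the 18975 genes measured, namely 11 fibrillar collagens, 10 basement membrane collagens, 7 fibril-associated collagens and 7 other collagens. The tumors grew in C57BL/6 mice that were heterozygous for ARE-del (HET) or carried the genotype label ARE-del +/+, titled WT. ARE-del removes an AU-rich element from the 3′ untranslated region of Ifng, the interferon-gamma gene: the allele belongs to the host, while the injected line came from culture. From day 7 of growth the mice received, 2 times a week, 0.25 mg of anti-PD1, 0.25 mg of agonist anti-CD40, both antibodies together (the combination) or control rat IgG2A (IgG). The HET tumors were 3 with anti-PD1, 4 with anti-CD40, 4 with the combination and 4 with IgG. The WT tumors were 4 with anti-PD1, 3 with anti-CD40, 3 with the combination and 5 with IgG. The title of the series places it in the testing of cancer immunotherapy in hosts with set interferon-gamma levels and autoimmunity. Nothing in the labels ties replicates to separate animals, so each p-value reflects only how far these tumors scatter. The labels give neither age nor sex.

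Collagens are triple-helical proteins of the extracellular matrix. Fibrillar chains assemble into banded fibers and come mainly from fibroblasts, basement membrane chains form the sheets under epithelium and around vessels, and fibril-associated chains decorate fibers without forming them. In a tumor grown under the skin, collagen RNA can come from stromal cells of the host, from vessel walls, from skin caught in the sample and from the tumor cells themselves.

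Libraries held 17.6 M to 36.0 M reads. The melanocyte genes Pmel and Dct were abundant in every library, with ranges of 12.5 to 14.5 and 12.9 to 13.9 log2 CPM (CPM, reads of a gene scaled to library size). Ifng had no read in any HET anti-PD1 or WT IgG tumor, and its highest value, 0.29 log2 CPM, was in a HET anti-CD40 tumor. The keratinocyte genes Krt14 and Krt5 had no read in 8 and 9 of the 30 libraries, and Krt14 reached 10.1 log2 CPM in another. A keratinocyte score, the mean log2 CPM of 15 marker genes, split the libraries into 9 between 1.19 and 6.07 and 21 between -2.40 and -0.24. The 9 were 2 HET anti-CD40, 3 HET combination, 1 WT anti-PD1, 2 WT anti-CD40 and 1 WT IgG tumor. HET IgG replicate 2 stood apart in its library composition: scaling by plain read totals moved its median gene by -0.38 on the log2 scale, against -0.09 to 0.07 for the other libraries. An L number in the sample descriptions, whose meaning is not stated, follows the groups closely. L5 holds WT anti-PD1 and WT IgG tumors, L6 all WT anti-CD40 and WT combination tumors with 1 WT anti-PD1 and 1 HET IgG tumor, and L7 and L8 hold HET tumors. Genotype and L number therefore cannot be told apart for most comparisons. Only the WT anti-PD1 group links L5 to another L number, and it does so by the 1 tumor in L6. Only the HET IgG group links L6 to L7 and L8, again by 1 tumor in L6. Comparisons between genotypes with the L number in the fit thus hang on 1 or both of these tumors.

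The most abundant collagen per kilobase of exon was Col4a1, with a mean of 44.0 CPM per kilobase, or 21.9% of the summed collagen signal on that scale. Its partner Col4a2, the other chain of the common basement membrane trimer, followed at 32.1. The type I chain gene Col1a1 averaged 25.6, the fibril-associated Col16a1 19.4, the type III gene Col3a1 17.1 and the second type I chain gene Col1a2 10.4 CPM per kilobase. Col5a3, a type V chain, and Col15a1, a vascular and muscle basement membrane chain, stood close to each other at 9.59 and 9.54. Col4a1 and Col4a2 together held 23.8% to 51.6% of the summed collagen level per kilobase, with a median of 41.1% over the libraries. Type I and type III genes together held 5.58% to 45.9%, with a median of 19.4%, so their share was the more variable of the pair of sums.

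**Figure D1:**
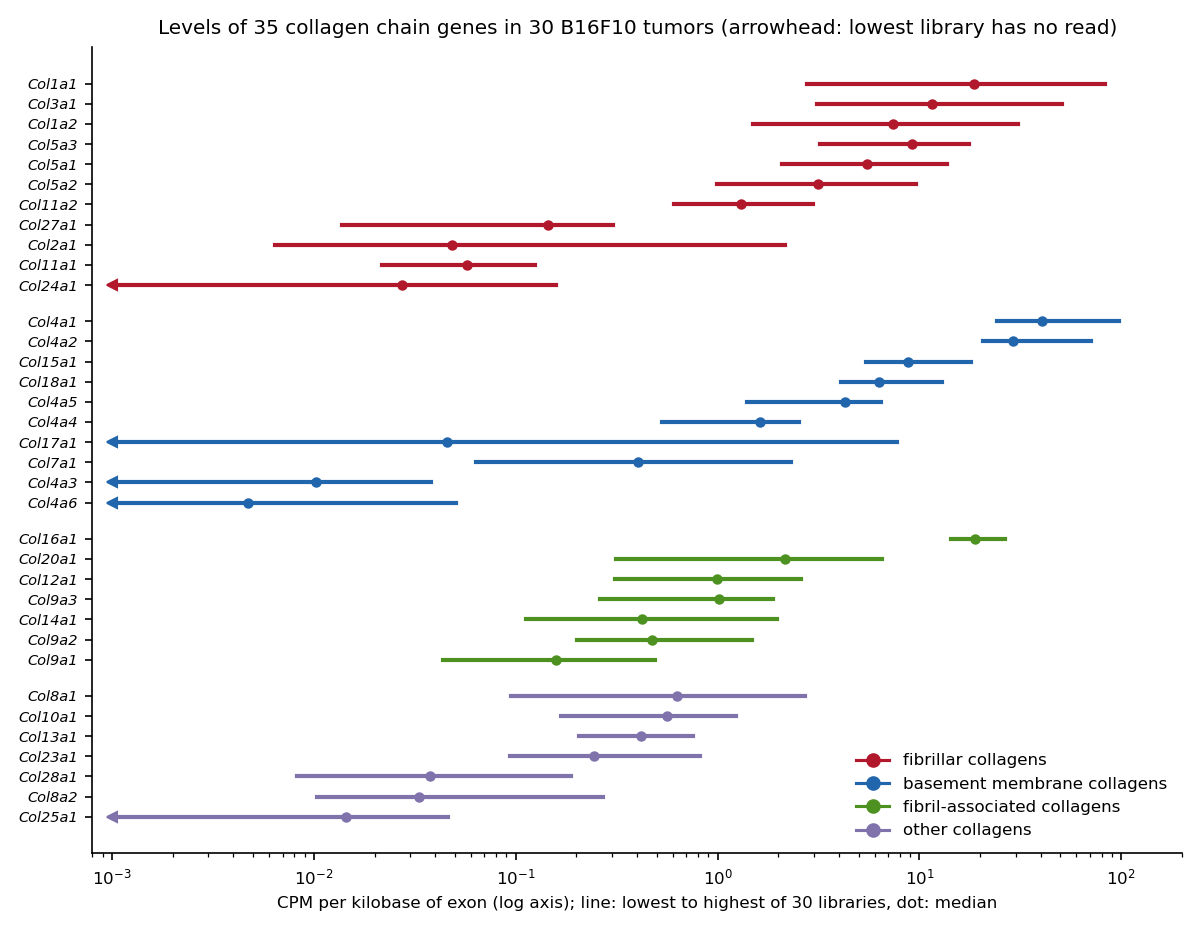
Level per kilobase of exon of the 35 collagen genes on a log axis, in 4 classes. Lines run from the lowest to the highest of the 30 libraries and dots mark the median; Col4a1 and Col4a2 lead, Col16a1 has the shortest line among the abundant genes and Col17a1 the longest among the genes that passed the filter.

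Of the 35 genes, 29 passed the filter of a log2 CPM above 0 in at least 3 libraries: 10 of 11 fibrillar, 8 of 10 basement membrane, 7 of 7 fibril-associated and 4 of 7 other collagens. The 6 below it were Col24a1, Col28a1, Col8a2, Col25a1, Col4a3 and Col4a6, with 230, 229, 194, 155, 88 and 46 reads over all 30 libraries. Col4a3 forms a trimer with Col4a4 and Col4a5 in the kidney filter. In these tumors Col4a4 and Col4a5 averaged 1.59 and 4.12 CPM per kilobase while Col4a3 averaged 0.0120.

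Variation between libraries differed widely among the members. Col16a1, a fibril-associated collagen known from skin and smooth muscle, spanned 0.89 on the log2 scale, and only 11.4% of the genes tested had a smaller standard deviation. Col17a1, the transmembrane collagen that anchors basal keratinocytes at hemidesmosomes, spanned 9.20, and 99.8% of the genes tested had a smaller one. Between them lay Col4a1 with 2.01, Col4a2 with 1.78, Col3a1 with 4.03, Col1a2 with 4.35, Col1a1 with 4.91 and Col7a1, the anchoring fibril gene of the skin, with 5.02.

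Col1a1 encodes the main chain of type I collagen, the bulk fiber of skin and scar. In HET tumors it stood at 6.72, 4.43 and 5.89 log2 CPM under anti-PD1, 8.21, 6.75, 8.02 and 7.26 after anti-CD40, 7.33, 7.23, 8.19 and 7.91 after the combination, and 6.46, 4.66, 5.15 and 7.69 after IgG. WT tumors gave values of 9.09, 7.93, 7.11 and 6.27 under anti-PD1, 6.82, 8.20 and 6.65 after anti-CD40, 5.99, 7.05 and 8.81 after the combination, and 5.83, 6.26, 4.19, 8.98 and 4.97 after IgG. The WT IgG tumors alone covered almost the whole range of the series, and every treated group overlapped its IgG group. Fewer cells of a type and less RNA per cell cannot be told apart in such bulk samples.

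Col3a1 encodes type III collagen, which co-assembles with type I in soft tissue. In HET tumors its levels were 6.39, 4.93 and 6.17 log2 CPM under anti-PD1, 7.93, 6.65, 7.81 and 7.47 after anti-CD40, 7.48, 7.47, 8.47 and 8.96 after the combination, and 6.15, 5.59, 5.36 and 7.55 after IgG. In WT tumors its levels were 8.89, 7.88, 7.42 and 6.47 under anti-PD1, 6.11, 8.07 and 6.52 after anti-CD40, 5.41, 6.97 and 8.72 after the combination, and 6.15, 6.12, 5.01, 8.36 and 5.52 after IgG. WT IgG replicate 4 was high for both genes, and so were WT anti-PD1 replicate 1 and WT combination replicate 3. Col1a2 averaged 5.45 ± 1.06 (n = 3) log2 CPM in HET anti-PD1, 7.21 ± 0.67 (n = 4) in HET anti-CD40, 7.38 ± 0.46 (n = 4) in HET combination and 5.88 ± 1.10 (n = 4) in HET IgG tumors, with SD. Its WT means were 7.32 ± 1.05 (n = 4) under anti-PD1, 6.84 ± 0.92 (n = 3) after anti-CD40, 6.82 ± 1.48 (n = 3) after the combination and 5.74 ± 1.60 (n = 5) after IgG.

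The plot of 6 collagen genes by library sets these values beside those of Col4a1, Col15a1, Col16a1 and Col17a1. The spread within groups was of the same order as the distance between group means for Col1a1 and Col3a1.

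**Figure D2:**
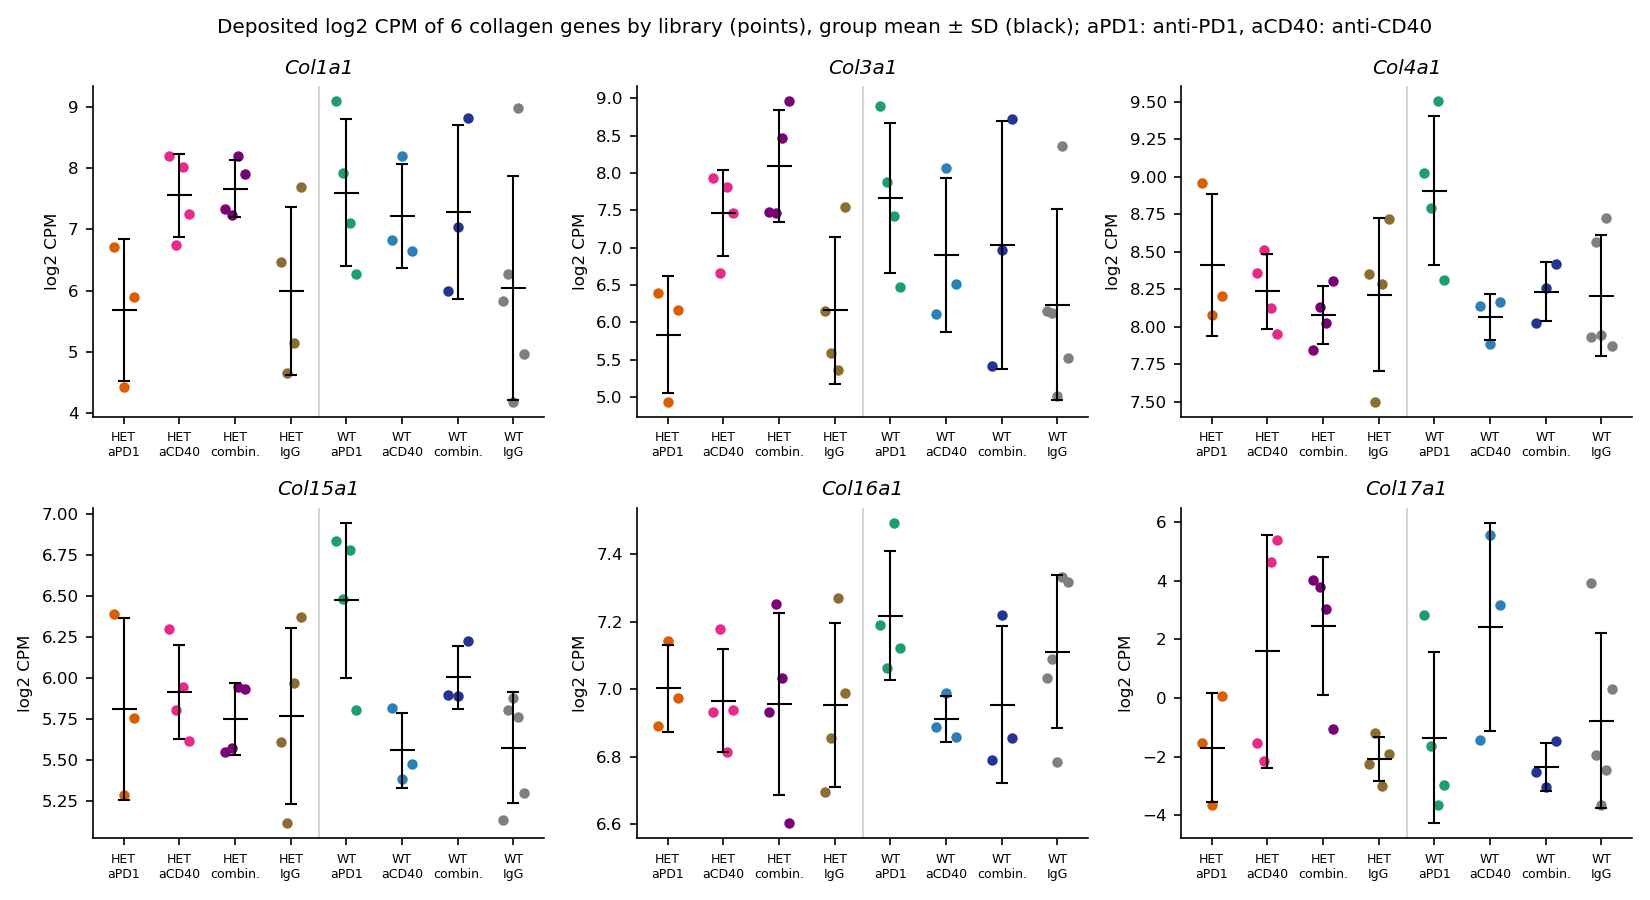
Deposited log2 CPM of Col1a1, Col3a1, Col4a1, Col15a1, Col16a1 and Col17a1 in each library (points) with group mean ± SD (black), HET groups left and WT groups right, treated groups left of IgG. Col4a1 averages 8.91 in WT anti-PD1 tumors and 8.21 in WT IgG tumors, Col16a1 stays between 6.6 and 7.49 in all 30 libraries, and Col17a1 splits into high and low libraries within groups.

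Chains of the same fiber moved together from tumor to tumor. Over the 30 libraries Col1a1 and Col1a2 had a Pearson r of 0.989 and a Spearman rho of 0.994, and Col1a2 and Col3a1 an r of 0.969 and a rho of 0.956. Col1a1 was correlated with the type V chain gene Col5a2 at r = 0.972 (rho 0.968) and with the fibril-associated Col12a1 at r = 0.947 (rho 0.933). Each of these 4 pairs had a permutation p of 1e-05, the smallest that 100000 permutations can give, and an adjusted p of 9.67e-05 over the 406 pairs of collagens computed. Without the 2 libraries farthest from the median of the first gene, r was 0.985, 0.970 and 0.948 for Col1a1 with Col1a2, Col5a2 and Col12a1, and 0.978 for Col3a1 with Col1a2. Within single L numbers r ran from 0.979 to 0.996 for Col1a1 with Col1a2 and from 0.851 to 0.995 for Col1a2 with Col3a1. The pairing did not extend to the whole class: the median r was 0.29 over all pairs of fibrillar collagens and 0.20 over all 406 pairs.

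These genes also followed the score of 11 fibroblast markers, none of them a collagen, which ran from -0.99 to 2.88 mean log2 CPM over the libraries. Col3a1 was correlated with it at r = 0.931 (rho 0.935), Col1a2 at r = 0.883 (rho 0.890), Col1a1 at r = 0.871 (rho 0.877) and Col5a2 at r = 0.864 (rho 0.869). The permutation p was 1e-05 and the adjusted p 0.000245 for each, over 319 pairs of a collagen and a marker score. On deviations from group means the r values were 0.91, 0.86, 0.85 and 0.84, and within single L numbers r ran from 0.680 to 0.942 for Col3a1 and from 0.446 to 0.935 for Col1a1. Without the 2 libraries farthest from the median score r was 0.92, 0.87, 0.86 and 0.84 for the same 4 genes. The macrophage score moved with the same genes, at r = 0.834 for Col3a1 and 0.790 for Col1a1. Its part in the fibroblast relation was not tested. In the groups, the fibroblast score averaged 0.21 ± 0.57 (n = 3) in HET anti-PD1, 1.92 ± 0.77 (n = 4) in HET anti-CD40, 2.39 ± 0.52 (n = 4) in HET combination and 0.27 ± 0.86 (n = 4) in HET IgG tumors (SD). WT means were 1.55 ± 1.11 (n = 4) under anti-PD1, 1.36 ± 1.22 (n = 3) after anti-CD40, 0.93 ± 1.54 (n = 3) after the combination and 0.54 ± 1.32 (n = 5) after IgG. Outside the collagens, the genes most like Col1a1 over the 30 libraries were Slit3, P4ha3 and Bgn, with r of 0.94, 0.93 and 0.93.

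**Figure D3:**
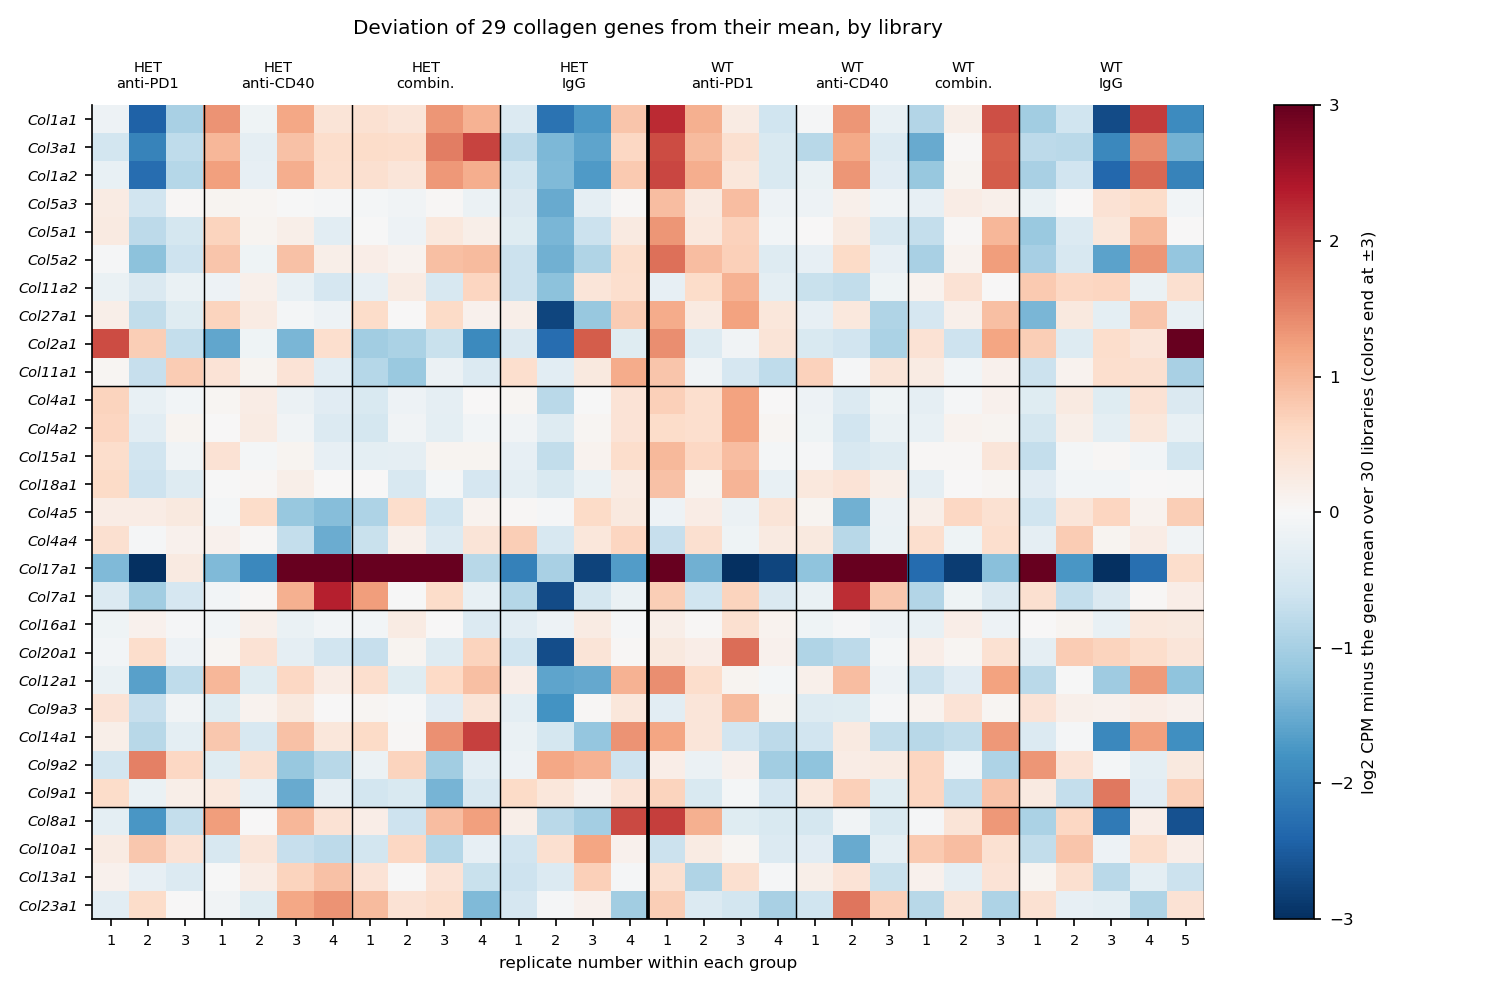
Each of the 29 collagen genes that passed the filter, as log2 CPM minus its mean over 30 libraries, by library within the 8 groups; thin horizontal lines part the fibrillar, basement membrane, fibril-associated and other classes, and colors end at ±3. Col1a1, Col3a1, Col1a2 and Col5a2 share their red and blue libraries, Col4a1, Col4a2, Col15a1 and Col18a1 share another pattern, and the Col17a1 row stands out in 9 libraries.

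Col3a1 is shown with the bases before its annotated start because it had the smallest p of the type I and type III genes in 3 of the comparisons below. The stretch is chr1:45311288-45311537 of GRCm38.p6 on the plus strand, from RefSeq, and capitals mark the motif TATAAA, 117 bases before the RefSeq start.
Col3a1: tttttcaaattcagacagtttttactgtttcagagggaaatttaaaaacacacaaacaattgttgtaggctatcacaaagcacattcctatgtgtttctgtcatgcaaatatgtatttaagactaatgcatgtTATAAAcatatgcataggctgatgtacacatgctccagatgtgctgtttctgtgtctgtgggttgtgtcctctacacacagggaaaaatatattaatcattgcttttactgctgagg
TATAAA was searched on both strands of 300-base windows around RefSeq starts. It was present in 5 of the 30 windows of collagens and in 13.6% of 32851 windows in all. Of the 35 collagens, 28 had an entry in that table, some with more than 1 window.

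The common basement membrane pair starts in opposite directions from overlapping first exons. Col4a1 lies on the minus strand of chromosome 8 (chr8:11198423-11312826) and Col4a2 on the plus strand (chr8:11312805-11449287), with their first exons overlapping by 22 bases in the GENCODE vM21 annotation of mm10. The overlap is printed in capitals throughout, plus strand, because both first exons contain it.
Col4a1/Col4a2, chr8:11312805-11312826: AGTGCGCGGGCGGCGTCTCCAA
Strand was not stated for these libraries, so reads within those bases cannot be assigned to one gene. They are few beside exon lengths of 7464 bases for Col4a1 and 6619 for Col4a2.

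In HET tumors Col4a1 stood at 8.96, 8.08 and 8.20 log2 CPM under anti-PD1, 8.36, 8.51, 8.13 and 7.95 after anti-CD40, 7.84, 8.14, 8.02 and 8.31 after the combination, and 8.36, 7.50, 8.29 and 8.72 after IgG. Its WT values were 9.02, 8.79, 9.51 and 8.32 under anti-PD1, 8.14, 7.89 and 8.17 after anti-CD40, 8.03, 8.26 and 8.42 after the combination, and 7.93, 8.57, 7.94, 8.73 and 7.87 after IgG. Of the WT anti-PD1 tumors 3 lay above every WT IgG tumor, and 1 did not. Col4a2 averaged 7.81 ± 0.48 (n = 3) log2 CPM in HET anti-PD1, 7.61 ± 0.28 (n = 4) in HET anti-CD40, 7.43 ± 0.21 (n = 4) in HET combination and 7.67 ± 0.34 (n = 4) in HET IgG tumors (SD). Across WT tumors the means were 8.25 ± 0.47 (n = 4) under anti-PD1, 7.37 ± 0.25 (n = 3) after anti-CD40, 7.66 ± 0.19 (n = 3) after the combination and 7.57 ± 0.35 (n = 5) after IgG. Both genes had their highest group mean in WT anti-PD1 tumors and their lowest in WT anti-CD40 tumors.

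Col15a1, a proteoglycan collagen of vessel and muscle basement membranes, shared with Col4a1 the group of highest mean (WT anti-PD1) and the group of lowest mean (WT anti-CD40), but not the order between them. In HET tumors it stood at 6.39, 5.29 and 5.76 log2 CPM under anti-PD1, 6.30, 5.81, 5.95 and 5.61 after anti-CD40, 5.55, 5.57, 5.95 and 5.93 after the combination, and 5.61, 5.12, 5.97 and 6.38 after IgG. Among WT tumors the values were 6.83, 6.48, 6.78 and 5.81 under anti-PD1, 5.82, 5.39 and 5.48 after anti-CD40, 5.89, 5.89 and 6.23 after the combination, and 5.13, 5.80, 5.88, 5.76 and 5.30 after IgG. The WT anti-PD1 values again held 3 above and 1 within the WT IgG range. Col18a1, whose cleavage releases endostatin, averaged 5.92 ± 0.60 (n = 4) log2 CPM in WT anti-PD1 tumors and 5.37 ± 0.14 (n = 5) in WT IgG tumors (SD).

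Col4a1 and Col4a2 had r = 0.956 (rho 0.939) over the 30 libraries, and Col15a1 and Col4a1 had r = 0.830 (rho 0.708), with a permutation p of r of 1e-05 and an adjusted p of 9.67e-05 over 406 pairs for each. Without the 2 libraries farthest from the median of the first gene r was 0.929 and 0.749, and within single L numbers it ran from 0.883 to 0.986 and from 0.574 to 0.880. The score of pericyte and smooth muscle markers was correlated with Col18a1 at r = 0.782 (rho 0.669), with Col15a1 at r = 0.742 (rho 0.626), with Col4a1 at r = 0.696 (rho 0.535) and with Col4a2 at r = 0.667 (rho 0.486). The adjusted p of r was 0.000245, 0.000399, 0.000504 and 0.00118 over the 319 pairs. Without the 2 libraries farthest from the median score r was 0.67, 0.66, 0.59 and 0.52, and within single L numbers r for Col4a1 ran from -0.320 to 0.971, so that relation did not hold in every L number. The genes outside the collagens most like Col4a1 were Tns1, Nid2 and Aoc3, with r of 0.89, 0.88 and 0.88 over 30 libraries; Nid2 encodes a nidogen that links type IV collagen to laminin.

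**Figure D4:**
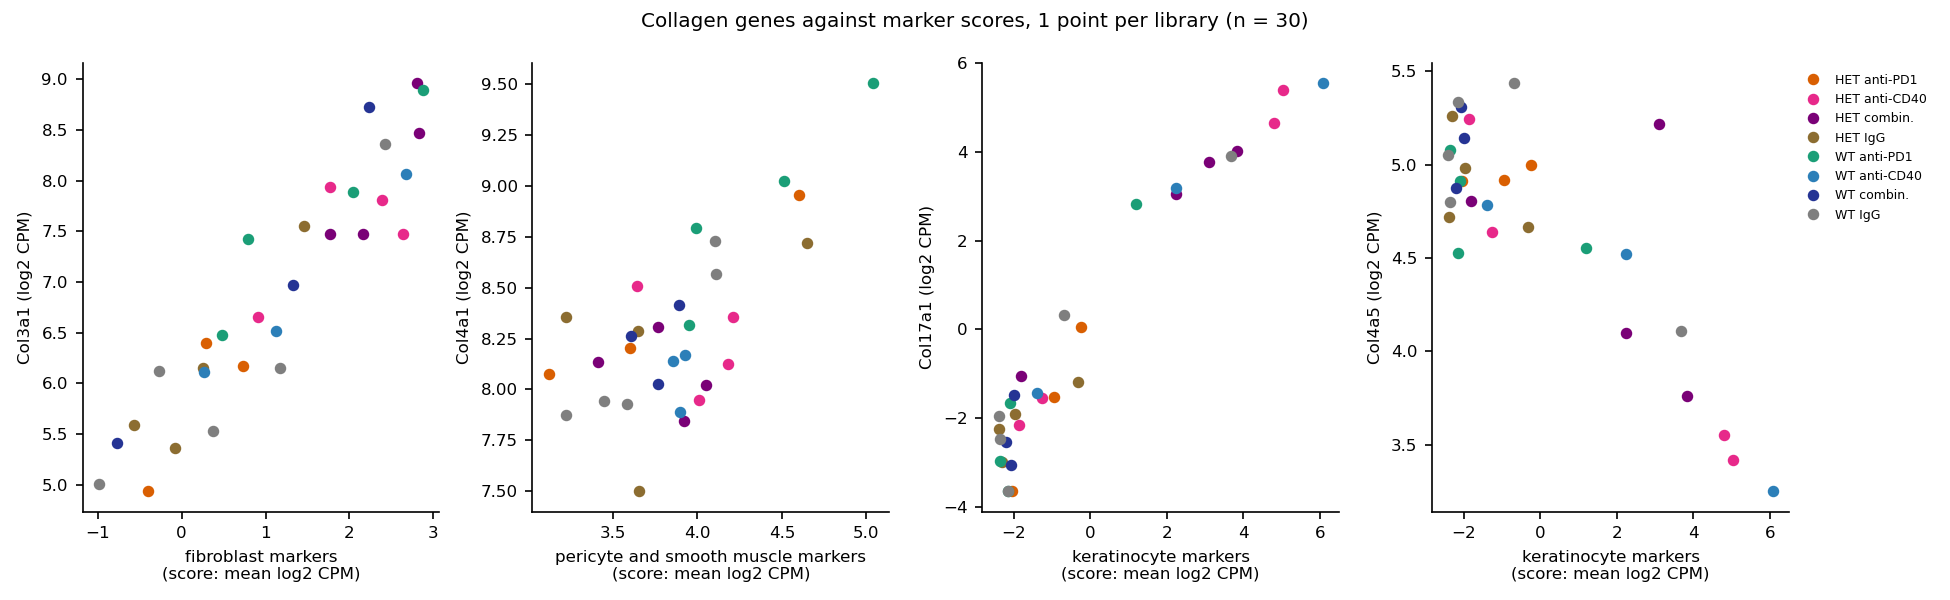
Col3a1 against the fibroblast score, Col4a1 against the pericyte and smooth muscle score, and Col17a1 and Col4a5 against the keratinocyte score, as log2 CPM on both axes, 1 point per library colored by group (n = 30). Col3a1 climbs along the whole fibroblast score, whereas the keratinocyte score leaves a gap between -0.24 and 1.19 with 21 libraries below it and 9 above.

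Col17a1 and Col7a1 belong to the attachment of the epidermis. Col17a1 lies at chr19:47646344-47692094 on the minus strand. The bases just upstream of its annotated transcription start are shown because its levels were the most variable of the members; capitals mark TATAAA, 140 and 91 bases before the RefSeq start, which lies downstream of the annotated gene start used here, in chr19:47692095-47692292 of GRCm38.p6, read on the minus strand.
Col17a1: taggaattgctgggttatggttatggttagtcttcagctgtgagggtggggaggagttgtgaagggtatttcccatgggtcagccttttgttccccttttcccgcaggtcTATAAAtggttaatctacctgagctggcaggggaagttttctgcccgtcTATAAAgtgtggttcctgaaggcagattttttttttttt
In HET tumors Col17a1 stood at -1.53, -3.64 and 0.06 log2 CPM under anti-PD1, -1.53, -2.14, 4.64 and 5.40 after anti-CD40, 4.03, 3.78, 3.05 and -1.04 after the combination, and -2.24, -1.19, -3.0 and -1.90 after IgG. The WT tumors read 2.83, -1.66, -3.64 and -2.97 under anti-PD1, -1.43, 5.55 and 3.17 after anti-CD40, -2.53, -3.05 and -1.47 after the combination, and 3.90, -1.96, -3.64, -2.47 and 0.32 after IgG. A value of -3.64 means no read, which was the case in 3 libraries.

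The 9 libraries with a keratinocyte score above 0 were the 9 with the highest Col17a1. Among those 9, Col17a1 had r = 0.974 (rho 0.983) with the score, with an exact permutation p of 5.51e-06 and an adjusted p of 0.000320 over 58 values for 29 collagens in 2 parts of the libraries. Among the other 21, r was 0.748 (rho 0.710) with a permutation p of 7e-05 and an adjusted p of 0.00203. Those 21 libraries held only 0 to 26 Col17a1 reads each, so correlations among them are between values near the floor. Without the 2 libraries farthest from the median score of each part, r was 0.967 and 0.697. Within the 9 libraries Col23a1, a transmembrane collagen, had r = 0.782 and Col4a5 r = -0.765, both with an adjusted p of 0.161, so neither passed. The genes outside the collagens with the pattern most like Col17a1 were Dsc3, Krt14 and Krt6a, with r of 0.97, 0.95 and 0.90 in the 9 libraries and 0.74, 0.82 and 0.76 in the 21. All 3 are genes of stratified epithelium.

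Col7a1 forms the anchoring fibrils that tie the epidermal basement membrane to the dermis. In HET tumors it stood at 1.84, 1.20 and 1.76 log2 CPM under anti-PD1, 2.17, 2.28, 3.31 and 4.58 after anti-CD40, 3.51, 2.24, 2.80 and 2.04 after the combination, and 1.40, -0.44, 1.72 and 2.04 after IgG. Its WT values were 2.99, 1.65, 2.92 and 1.81 under anti-PD1, 2.04, 4.47 and 3.07 after anti-CD40, 1.38, 2.13 and 1.82 after the combination, and 2.73, 1.54, 1.82, 2.27 and 2.44 after IgG. All 4 HET anti-CD40 tumors lay above all 4 HET IgG tumors, whereas the HET combination tumors touched the IgG range at 2.04.

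Among fibril-associated collagens, Col16a1 stood nearly level. In HET tumors it was 6.89, 7.14 and 6.98 log2 CPM under anti-PD1, 6.93, 7.18, 6.81 and 6.94 after anti-CD40, 6.93, 7.25, 7.03 and 6.6 after the combination, and 6.70, 6.86, 7.27 and 6.99 after IgG. WT tumors gave values of 7.19, 7.06, 7.49 and 7.12 under anti-PD1, 6.89, 6.99 and 6.86 after anti-CD40, 6.79, 7.22 and 6.86 after the combination, and 7.03, 7.09, 6.78, 7.33 and 7.32 after IgG. Each treated group overlapped its IgG group. Col20a1 averaged 3.51 ± 0.38 (n = 3) log2 CPM in HET anti-PD1, 3.32 ± 0.44 (n = 4) in HET anti-CD40, 3.32 ± 0.59 (n = 4) in HET combination and 2.70 ± 1.36 (n = 4) in HET IgG tumors (SD). Its WT means were 3.98 ± 0.73 (n = 4) under anti-PD1, 2.82 ± 0.46 (n = 3) after anti-CD40, 3.64 ± 0.20 (n = 3) after the combination and 3.81 ± 0.41 (n = 5) after IgG. HET IgG replicate 2 set the wide spread of its group, at 0.76 against 2.80 to 3.79 in the other HET IgG tumors. Col20a1 was correlated with the Schwann cell score at r = 0.649 (rho 0.511; permutation p 0.00024, adjusted p 0.00219 over 319 pairs), and at 0.46 without the 2 libraries farthest from the median score. Within single L numbers that r ran from 0.312 to 0.966.

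Col12a1 and Col14a1 bind the surface of type I fibers. Col12a1 averaged 3.03 ± 0.71 (n = 3) log2 CPM in HET anti-PD1, 4.26 ± 0.58 (n = 4) in HET anti-CD40, 4.31 ± 0.54 (n = 4) in HET combination and 3.43 ± 1.31 (n = 4) in HET IgG tumors (SD). WT means were 4.39 ± 0.66 (n = 4) under anti-PD1, 4.20 ± 0.56 (n = 3) after anti-CD40, 3.97 ± 0.99 (n = 3) after the combination and 3.53 ± 1.02 (n = 5) after IgG. Its groups followed the order of Col1a1 at the low end, with HET anti-PD1 lowest. Col14a1 followed the macrophage score most closely of the marker scores, with r = 0.839 (rho 0.888, permutation p 1e-05, adjusted p 0.000245 over 319 pairs; 0.79 without the 2 farthest libraries), and within single L numbers r ran from 0.252 to 0.953. It also had the largest correlation of any member with the skeletal muscle score, r = 0.568 (rho 0.556, adjusted p 0.00604; 0.57 without the 2 farthest libraries), followed by Col17a1 with r = 0.525 and Col3a1 with r = 0.501. For Col14a1 the muscle r ran from -0.103 to 0.920 within single L numbers.

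The other collagens were scarce. Col8a1, a short-chain collagen of vessel walls, averaged 1.42 ± 0.75 (n = 3) log2 CPM in HET anti-PD1, 3.01 ± 0.56 (n = 4) in HET anti-CD40, 2.78 ± 0.82 (n = 4) in HET combination and 2.42 ± 1.37 (n = 4) in HET IgG tumors (SD). The WT group means were 2.92 ± 1.21 (n = 4) under anti-PD1, 1.98 ± 0.22 (n = 3) after anti-CD40, 2.89 ± 0.69 (n = 3) after the combination and 1.36 ± 1.41 (n = 5) after IgG. The WT IgG group alone ran from -0.29 to 2.95. Col10a1, known from hypertrophic cartilage, averaged 1.29 ± 0.29, 0.40 ± 0.53, 0.54 ± 0.63 and 1.09 ± 0.73 log2 CPM in the HET anti-PD1, anti-CD40, combination and IgG groups, and 0.61 ± 0.40, 0.08 ± 0.69, 1.53 ± 0.24 and 0.93 ± 0.61 in the WT groups in that order (SD). The transmembrane collagen Col13a1 kept its 8 group means between 0.72 and 1.39 log2 CPM.

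Group means placed the members in different orders. Of the 29 genes, 12 had their highest mean in WT anti-PD1 tumors, among them Col4a1, Col4a2, Col15a1, Col18a1 and all 3 type V chain genes. HET combination tumors held the highest mean of 5, namely Col1a1, Col1a2, Col3a1, Col14a1 and Col17a1. HET anti-PD1 tumors held the lowest mean of Col1a1, Col1a2, Col3a1, Col5a2 and Col12a1, and WT anti-CD40 tumors the lowest of 7, Col4a1 and Col4a2 included.

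The limma fit of 8 group means over 15002 genes called no collagen at a Benjamini-Hochberg adjusted p under 0.05 in any of the 17 comparisons, and no other gene either (0% of the genes tested in each). A test of any difference among the 8 groups called 4 of 15002 genes, 0.0267%, and 0 of 29 collagens. At an unadjusted p under 0.05, 7 collagens and 1153 genes, 7.69% of those tested, differed among the groups. The 7 were Col7a1, Col4a2, Col3a1, Col15a1, Col10a1, Col5a3 and Col17a1, with adjusted p from 0.50 to 0.65. A voom fit on the recovered whole reads likewise called 0 genes in the 17 comparisons, while limma with library weights called genes in some, 3 collagens included. Values below are therefore descriptions of these libraries, each with its standard error (SE) from limma.

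In HET tumors given anti-PD1, 0 of the 29 collagens had an unadjusted p under 0.05 against HET IgG. The 3 with the smallest p were Col20a1 with a log2 difference of 0.81 ± 0.49, Col5a3 with 0.44 ± 0.28 and Col8a1 with -1.0 ± 0.73, each with an adjusted p of 1.00. Without HET IgG replicate 2 the first 2 differences were 0.17 and 0.12. Background shares at an unadjusted p under 0.05 were 0.6% of genes higher and 0.36% lower. The count was 1 without HET IgG replicate 3 or HET anti-PD1 replicate 2, and 2 without HET IgG replicate 4. The median difference was -0.02 over the fibrillar and 0.09 over the basement membrane collagens, against 0.01 over all genes.

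In HET tumors given anti-CD40, Col7a1 had the smallest p of the members, with a log2 difference of 1.90 ± 0.54 from HET IgG and an adjusted p of 0.184. All 4 treated tumors lay above all 4 IgG tumors for this gene, a pattern shown by 3.23% of the genes tested. The size of the Col7a1 difference leans on HET IgG replicate 2, at -0.44 log2 CPM against 1.40, 1.72 and 2.04 in the other IgG tumors. Col4a4 was lower by -0.82 ± 0.34 with 4.13, 4.04, 3.30 and 2.51 log2 CPM after anti-CD40 and 4.75, 3.52, 4.34 and 4.63 after IgG. Col5a3 differed by 0.56 ± 0.26, and by 0.24 without HET IgG replicate 2. In all, 3 collagens were higher and 1 lower at an unadjusted p under 0.05, against 8.12% and 6.75% of all genes tested, so the count stood near the background. The count of 4 was 8 without WT IgG replicate 4, 2 without HET IgG replicate 2, 11 without HET IgG replicate 4 or HET anti-CD40 replicate 2, and 1 without HET anti-CD40 replicate 3 or 4. The fibrillar median was 0.80, with 8 of 10 higher, against -0.01 over all genes, of which 49.3% were higher. The keratinocyte score of these tumors averaged 1.68 ± 3.75 after anti-CD40 and -1.74 ± 0.96 after IgG (SD, n = 4 each). Their skeletal muscle score averaged 3.01 ± 1.66 and -0.09 ± 2.71. With the keratinocyte and muscle scores in the fit, Col7a1 differed by 0.95 with an unadjusted p of 0.062, and Col17a1 by -0.36 in place of 3.67. Col17a1 follows the keratinocyte score closely, with r = 0.974 in the 9 libraries above 0. A fit with that score therefore takes out most of any Col17a1 difference and cannot tell its source. Within L7, Col7a1 differed by 1.94 and Col1a1 by 2.75 between 3 anti-CD40 and 2 IgG tumors. HET IgG replicate 2 was among these IgG tumors and was the lowest of its group for both genes, at -0.44 and 4.66 log2 CPM.

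In HET tumors given the combination, 6 collagens were higher than in HET IgG tumors and 2 lower at an unadjusted p under 0.05, against 6.46% and 3.35% of all genes. The 6 were Col3a1, Col7a1, Col17a1, Col5a2, Col1a1 and Col1a2, and the 2 lower ones were Col11a1 and the type IX chain gene Col9a1. Col3a1 differed by 1.93 ± 0.68 with an adjusted p of 0.356, Col7a1 by 1.46 ± 0.54 and Col17a1 by 4.53 ± 1.76, with adjusted p of 0.388 and 0.406. HET IgG replicate 2 was again the lowest IgG tumor for Col7a1, at -0.44 log2 CPM. Of the 29 genes, Col17a1 had every treated tumor above every IgG tumor and Col9a1 every treated tumor below, patterns shown by 3.63% and 1.40% of all genes. For Col17a1 the nearest tumors differed by few reads, 12 in HET combination replicate 4 against 6 in HET IgG replicate 2. Col9a1 had 16, 20, 7 and 16 reads after the combination and 37, 17, 19 and 28 after IgG. Its read numbers overlapped before scaling to library size. The count of 8 was 4 without HET IgG replicate 2 or without HET combination replicate 3, 5 without HET combination replicate 1 or 4, 13 without HET IgG replicate 4, and 0 with the L number in the fit. All 4 HET combination tumors lie in L8, which holds only 1 HET IgG tumor, replicate 4. The fibrillar median was 0.84, with 8 of 10 higher, and the basement membrane median -0.11, with 49.6% of all genes higher. The keratinocyte score averaged 1.84 ± 2.52 after the combination and -1.74 ± 0.96 after IgG, and the fibroblast score 2.39 ± 0.52 and 0.27 ± 0.86 (SD, n = 4 each). The skeletal muscle score averaged 2.67 ± 0.87 and -0.09 ± 2.71. Mean adipocyte, macrophage, T cell, endothelium and Schwann cell scores were also higher after the combination. Mean red blood cell, melanocyte, cartilage, and pericyte and smooth muscle scores were lower. With the keratinocyte and muscle scores in the fit Col17a1 differed by 0.40, Col7a1 by 0.51 and Col3a1 by 1.23. Because Col17a1 follows the keratinocyte score closely, that fit takes out most of any Col17a1 difference and cannot tell its source.

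In WT tumors given anti-PD1, 8 collagens were higher than in WT IgG tumors at an unadjusted p under 0.05 and 0 lower, against 1.76% and 0.993% of all genes tested. They were 4 basement membrane genes, Col15a1, Col4a2, Col4a1 and Col18a1, the fibrillar genes Col5a2, Col1a2 and Col3a1, and Col8a1. Col15a1 differed by 0.90 ± 0.24 with an unadjusted p of 0.0010, Col4a2 by 0.69 ± 0.22 and Col4a1 by 0.70 ± 0.24, with an adjusted p of 1.00 for each. No collagen had its 4 treated tumors all above the 5 IgG tumors, a pattern shown by 0.300% of all genes. The median difference was 0.74 over 10 fibrillar collagens, with 7 higher, 0.36 over 8 basement membrane collagens and 0.11 over 7 fibril-associated collagens, against -0.02 over all genes, of which 45.3% were higher. The count of 8 was 3 without WT anti-PD1 replicate 1, 4 without WT IgG replicate 3, 5 without WT anti-PD1 replicate 2 or WT IgG replicate 5, and up to 12 without WT IgG replicate 4; it was 2 with library weights. Col15a1 kept an unadjusted p under 0.05 in all 30 fits that left out 1 library, with differences of 0.78 to 1.12. Within L5, which holds 3 of these treated and all 5 IgG tumors, Col15a1 differed by 1.12, Col4a1 by 0.90, Col1a1 by 2.0 and Col8a1 by 1.91. The pericyte and smooth muscle score averaged 4.37 ± 0.51 (n = 4) in WT anti-PD1 and 3.69 ± 0.40 (n = 5) in WT IgG tumors (SD). The endothelium score averaged 4.56 ± 0.44 and 4.08 ± 0.14 in the same groups. The part of either score in these differences was not tested. Mean fibroblast, macrophage, T cell, adipocyte, Schwann cell, cartilage and skeletal muscle scores were also higher under anti-PD1. Mean keratinocyte, melanocyte and red blood cell scores were lower.

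**Figure D5:**
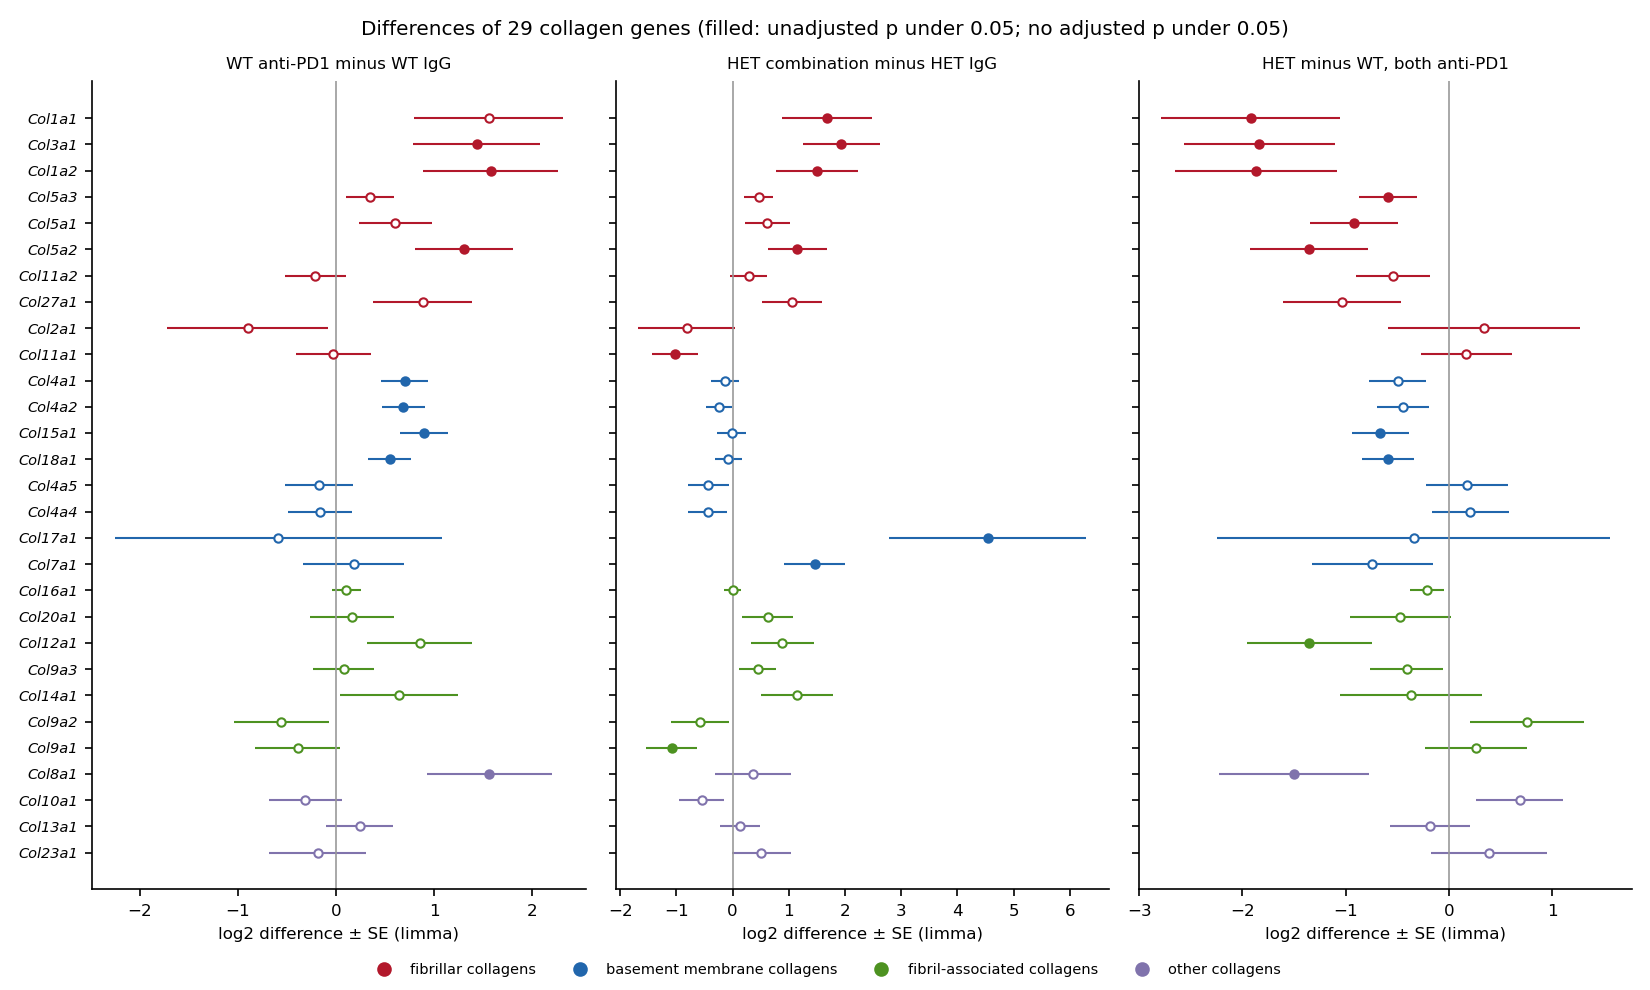
Log2 difference ± SE from limma of the 29 collagen genes for WT anti-PD1 minus WT IgG, HET combination minus HET IgG, and HET minus WT under anti-PD1, colored by class; filled points have an unadjusted p under 0.05 and no point has an adjusted p under 0.05. In the first panel 8 filled points lie right of 0, in the second 6 lie right and 2 left, and in the third 10 lie left.

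In WT tumors given anti-CD40, 4 collagens were lower than in WT IgG tumors at an unadjusted p under 0.05 and 0 higher, with 2.46% of all genes lower and 2.72% higher. The cartilage-type chain genes Col11a2 and Col2a1 differed by -0.98 ± 0.34 and -1.88 ± 0.89 and Col20a1 by -1.0 ± 0.47, each with an adjusted p of 0.621. Col2a1 read -1.01, -1.11 and -1.50 log2 CPM after anti-CD40 and 0.19, -0.94, -0.02, -0.18 and 4.33 after IgG. The difference was -0.97 without WT IgG replicate 5, the library at 4.33. Every anti-CD40 tumor lay below every IgG tumor for Col2a1 and Col9a3, a pattern of 1.04% of all genes, and above for Col18a1, a pattern of 0.693%. Col2a1 had 10, 8 and 7 reads after anti-CD40 and 23, 10, 16, 16 and 379 after IgG. Its nearest tumors thus held equal reads and were parted only by scaling to library size. The count of 4 was 1 without WT IgG replicate 5 or without WT anti-CD40 replicate 2, and 2 without WT IgG replicate 2. In WT tumors given the combination, Col8a1 alone had an unadjusted p under 0.05 against WT IgG, with 1.53 ± 0.70, where 0.213% of all genes were higher and 0.2% lower at that p. The count of 1 was 0 without WT IgG replicate 3 or 5 or WT combination replicate 2 or 3, and 4 without WT IgG replicate 4 or WT combination replicate 1. Col15a1 differed by 0.43 ± 0.26 and Col1a1 by 1.24 ± 0.83, all with an adjusted p of 1.00. Each of the 3 WT combination tumors exceeded each WT IgG tumor for Col15a1, a pattern of 0.540% of all genes.

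Between genotypes under anti-PD1, 10 collagens were lower in HET than in WT tumors at an unadjusted p under 0.05 and 0 higher, with 1.21% of all genes lower and 0.933% higher. They were Col1a1, Col1a2, Col3a1, Col5a1, Col5a2 and Col5a3 among the fibrillar genes, with Col12a1, Col15a1, Col18a1 and Col8a1. Col3a1 differed by -1.83 ± 0.73, Col1a2 by -1.87 ± 0.79 and Col15a1 by -0.66 ± 0.28, with an adjusted p of 1.00 for each. All 3 HET tumors lay below all 4 WT tumors for Col3a1, Col12a1 and Col27a1, a pattern of 2.12% of all genes. All 3 lay above them for Col10a1, a pattern of 2.92%. The fibrillar median was -0.98, with 8 of 10 lower, and the basement membrane median -0.47, against 0.02 over all genes, of which 54% were higher in HET tumors. The count of 10 was 0 without WT anti-PD1 replicate 1 or without HET anti-PD1 replicate 2, 2 without HET anti-PD1 replicate 3 and 6 without WT anti-PD1 replicate 2 or 3. No L number holds both groups, and with the L number in the fit the count was 0 and Col1a1 differed by 0.40 in place of -1.92, so genotype and L number cannot be told apart here.

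Under IgG, 3 collagens were lower in HET than in WT tumors at an unadjusted p under 0.05, with 1.23% of all genes lower and 0.833% higher. Col5a3 differed by -0.69 ± 0.25, Col20a1 by -1.12 ± 0.43 and Col11a2 by -0.72 ± 0.31, each with an adjusted p of 1.00. With the L number in the fit Col5a3 turned to 0.30, and Col20a1 and Col11a2 differed by -0.42 and -0.38. Without HET IgG replicate 2 the count was 0, and the differences were -0.37, -0.47 and -0.40. It was 5 without WT IgG replicate 2, 7 without HET IgG replicate 3 and 6 without HET IgG replicate 4. Under anti-CD40, 0 collagens had an unadjusted p under 0.05, against 3.17% of genes higher and 0.66% lower, and Col8a1 had the smallest with 1.03 ± 0.73. Its 3.59, 2.34, 3.33 and 2.77 log2 CPM in HET anti-CD40 tumors all exceeded the 1.82, 2.23 and 1.89 in WT anti-CD40 tumors, a pattern of 2.36% of all genes. With the keratinocyte and muscle scores in the fit its difference turned to -0.25. Col18a1 went the other way, with every HET tumor below every WT tumor, a pattern of 1.54%. Under the combination, Col17a1 differed by 4.80 ± 1.90 and Col10a1 by -0.99 ± 0.42 between HET and WT tumors, with adjusted p of 0.763 and 0.781. At an unadjusted p under 0.05, 4.13% of all genes were higher and 1.43% lower. This count of 2 was 4 without WT combination replicate 3, and 1 without WT combination replicate 1 or 2 or HET combination replicate 1 or 3. Col17a1 was above every WT combination tumor in each HET combination tumor, a pattern of 6.76% of all genes. The difference was 0.19 with the keratinocyte and muscle scores in the fit, which takes out most of any Col17a1 difference, as the gene follows the keratinocyte score. The nearest tumors held 12 Col17a1 reads (HET combination replicate 4) and 8 (WT combination replicate 3). Col11a1 and Col2a1 had each HET combination tumor below each WT combination tumor, a pattern of 5.69%. Both had few reads. Col11a1 had 11, 10, 17 and 15 in HET combination and 18, 16 and 22 in WT combination tumors. Col2a1 had 8, 10, 10 and 3 against 18, 9 and 42. For both genes the read numbers overlapped before scaling to library size. The WT combination tumors had keratinocyte scores of -2.21 to -1.99.

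The combination was also set against each antibody alone. In HET tumors, 5 collagens were higher after the combination than after anti-PD1 at an unadjusted p under 0.05, against 6.15% of all genes, and 0 lower, against 5.62%. The count was 8 without HET combination replicate 2, 3 without HET anti-PD1 replicate 2 or HET combination replicate 4, and 2 without HET combination replicate 3. Col3a1 differed by 2.26 ± 0.73, Col1a2 by 1.93 ± 0.79 and Col1a1 by 1.98 ± 0.87, with adjusted p of 0.366, 0.379 and 0.402. The 4 combination tumors all exceeded the 3 anti-PD1 tumors for these genes, Col5a2 and Col7a1, a pattern of 9.53% of all genes, and all lay below them for Col9a1, a pattern of 9.74%. Col9a1 reads, 16, 20, 7 and 16 against 31, 15 and 24, overlapped before scaling to library size. With the L number in the fit the 3 differences were 1.28, 0.95 and 0.88, and the count was 0. Against anti-CD40 alone in HET tumors 0 collagens had an unadjusted p under 0.05, against 0.467% of genes higher and 0.147% lower, with -0.78 ± 0.41 for Col11a1 the smallest p. In WT tumors the combination differed from anti-PD1 by -0.68 ± 0.27 for Col4a1, -0.59 ± 0.25 for Col4a2 and 0.92 ± 0.42 for Col10a1, where 0.813% of all genes were higher and 1.06% lower at an unadjusted p under 0.05. These 3 were the only members at that p; the count was 0 without WT combination replicate 1, 1 without WT anti-PD1 replicate 3 and 5 without WT anti-PD1 replicate 4. It differed from anti-CD40 by 1.45 ± 0.45 for Col10a1, -4.78 ± 2.03 for Col17a1 and -1.42 ± 0.63 for Col7a1, groups that lie within L6 alone, with an adjusted p of 0.606 for each. Col4a5 was the fourth member at that p, against 2.17% of all genes higher and 3.15% lower, and the count was 2 without WT combination replicate 1 or 3 and 1 when WT anti-CD40 replicate 2 was left out. Col10a1 read 1.59, 1.73 and 1.26 log2 CPM after the combination and 0.45, -0.72 and 0.49 after anti-CD40. In all, 7 collagens (Col10a1, Col11a2, Col15a1, Col20a1, Col4a5, Col8a1 and Col9a3) had every combination tumor above every anti-CD40 tumor, a pattern of 5.71% of all genes, and Col17a1 and Col18a1 had every one below, a pattern of 7.39%. The keratinocyte score was -2.21 to -1.99 in the 3 WT combination tumors and -1.39, 6.07 and 2.23 in the WT anti-CD40 tumors. With the keratinocyte and muscle scores in the fit Col17a1 differed by -0.29, Col7a1 by -0.59 and Col10a1 by 1.00. For Col17a1, which follows the keratinocyte score closely, such a fit cannot tell the source of the difference.

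The interaction, the response of HET tumors minus that of WT tumors, called 0 collagens for any treatment. At an unadjusted p under 0.05 it gave 2 collagens lower for anti-PD1, against 0.473% of genes, and 2 higher for anti-CD40, against 1.48%. It gave 2 higher and 1 lower for the combination, against 2.43% and 1.07%. The anti-PD1 count was 7 without WT IgG replicate 4 or WT anti-PD1 replicate 4 and 6 without HET anti-PD1 replicate 1. It was 1 without WT IgG replicate 1, WT anti-PD1 replicate 1 or 3, HET IgG replicate 4, or HET anti-PD1 replicate 2 or 3. The anti-CD40 count was 0 without HET IgG replicate 2, 4 without HET IgG replicate 3, 5 without HET IgG replicate 4, and 1 without WT IgG replicate 2 or 3, WT anti-CD40 replicate 1, HET IgG replicate 1 or HET anti-CD40 replicate 2. The combination count was 1 without WT IgG replicate 1, WT combination replicate 1 or HET combination replicate 1. For anti-PD1 it was -2.56 ± 0.97 for Col8a1, -0.86 ± 0.37 for Col15a1 and -2.01 ± 1.05 for Col1a2, with adjusted p of 1.00. For anti-CD40 it was 1.62 ± 0.65 for Col20a1, 1.05 ± 0.48 for Col11a2 and 0.75 ± 0.37 for Col5a3, and 0.97, 0.72 and 0.43 without HET IgG replicate 2. With the L number in the fit Col5a3 turned to -0.055, and Col20a1 and Col11a2 gave 1.08 and 0.20. For the combination it was 6.11 ± 2.53 for Col17a1, 1.85 ± 0.78 for Col7a1 and -1.23 ± 0.58 for Col11a1, with adjusted p of 0.990. With the keratinocyte and muscle scores in the fit the first 2 were 0.62 and 0.64. Since Col17a1 follows the keratinocyte score closely, its smaller value there was to be had from any source of the difference.

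Genes that make, cut, bind and organize collagen were read beside the chains. None of them was called. In WT anti-PD1 tumors all 7 measured fibril-binding proteoglycan genes were higher than in WT IgG tumors, with a median of 0.84, against -0.02 over all genes, of which 45.3% were higher and 1.76% higher at an unadjusted p under 0.05. Bgn, which encodes biglycan, differed by 1.57 ± 0.52 and Aspn, asporin, by 0.95 ± 0.41. Against the same shares, 13 of 15 basement membrane partner genes were higher, 5 of them at an unadjusted p under 0.05, with a median of 0.20. The laminin chain gene Lama2 differed by 1.15 ± 0.28 and Nid2 by 0.66 ± 0.20. Against 45.3% of all genes, 17 of 23 genes of collagen biosynthesis were higher, with Adamts2, the procollagen N-proteinase gene, at 1.40 ± 0.46 and the prolyl hydroxylase gene P4ha3 at 1.74 ± 0.74. Among breakdown genes Timp3, a metalloproteinase inhibitor, differed by 0.81 ± 0.25.

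In HET combination tumors the median over fibril-binding proteoglycans was 0.93, with 6 of 7 higher against 49.6% of all genes, and decorin (Dcn) and osteoglycin (Ogn) differed from HET IgG by 2.57 ± 0.80 and 2.65 ± 0.85. The gelatinase genes Mmp2 and Mmp9 differed by 1.40 ± 0.39 and 3.42 ± 1.09, with adjusted p of 0.271 and 0.323. Lair1, an inhibitory collagen receptor of leukocytes, differed by 1.75 ± 0.55, and the crosslinking enzyme gene Lox by 3.03 ± 1.34. Basement membrane partners gave a median of -0.09, with Lamb2 at -0.54 ± 0.22. After anti-CD40 in HET tumors Mmp2 differed by 1.16 ± 0.39, Mmp9 by 3.24 ± 1.09 and Lair1 by 1.92 ± 0.55, and Prelp, a basement membrane-anchoring proteoglycan gene, by -1.22 ± 0.45. Between HET and WT tumors under anti-PD1 the 7 proteoglycan genes were all lower, where 54% of all genes were higher, with a median of -1.24 and Bgn at -1.76 ± 0.59.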

How the data were processed

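RNA from 30 subcutaneous tumors was sequenced; reads were aligned with STAR and handled with edgeR against mm10, per the submitters' processing notes, without versions. The deposited table holds log2 values per gene made by the authors, which behave as log2 CPM with a prior count of 2: whole reads were recovered for 100% of values within 0.01 reads, giving 17.6 M to 36.0 M reads per library (median 24.9 M). Strandedness, aligner settings and annotation are not given in the sources used here; exon lengths come from GENCODE vM21. The smallest value, -3.64, is a gene without reads.

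Genes above a log2 of 0 in at least 3 libraries were kept (15002 of 18975). Group means were fitted with limma 3.58.1 (R 4.3.3) with a mean-variance trend, in 17 comparisons and an F test across 8 groups, with Benjamini-Hochberg adjustment over all kept genes and a threshold of 0.05. The fit was tested on simulated data. Because the unit is log2 and not counts, voom on the recovered reads served as the count-based alternative; other alternatives were filters, the prior, plain library totals, library weights, the L number, marker scores, a replicate block and leaving out each library. Marker scores are mean log2 CPM of each list. Correlations used 100000 permutations, or exact enumeration for 9 libraries. Levels between genes were compared per kilobase of exon. Genes named in a comparison are the 3 collagens with the smallest p, and others named were chosen after their values were seen. The members and lists were chosen with earlier results of these data known. Tables and figures used Python 3.11.15, numpy 2.4.6, pandas 2.3.3 and matplotlib 3.10.9. Promoter sequences are from RefSeq, and 28 of 35 collagens matched.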

Additional observations from a re-analysis of the deposited data

Results flagged for a closer look

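In 5 of 145 gene and group sets of 4 or 5 tumors, 1 tumor lay far from the others of its group, and chance alone flags about 1 in 20. Col2a1 stood at 4.33 log2 CPM in WT IgG replicate 5, against 0.19 in the nearest WT IgG tumor, and the WT anti-CD40 difference depends on it. Col20a1 stood at 5.07 in WT anti-PD1 replicate 3, with the nearest at 3.70. Col18a1 was low at 5.13 in WT IgG replicate 1, with the nearest at 5.39. Col9a1 was low at -1.61 in HET combination replicate 3, with the nearest at -0.77. Col9a3 stood at 2.32 in WT IgG replicate 1, with the nearest at 2.12.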

How the results depend on the processing

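Under limma with library weights, whose weight estimation ended with a convergence warning, 50 genes were called for HET anti-PD1 against IgG, 60 for HET anti-CD40 against IgG, 407 for the HET combination against IgG with 1 collagen (Col17a1, log2 difference 5.00, adjusted p 0.0398), 23 for HET against WT under the combination, and 2273 for the HET combination against HET anti-PD1 with 2 collagens (Col3a1, 1.95, adjusted p 0.0386, and Col11a1). The unweighted fit called 0 in each, and the cause was not tested. The 4 genes differing among the 8 groups became 59 with library weights, 0 when the L number entered the fit, 0 when the 2 marker scores (keratinocyte, muscle) did, and ran from 0 to 15 when 1 library was left out. Leaving out 1 library gave 0 to 1 called genes for HET anti-PD1 and for HET anti-CD40 against IgG, 0 to 6 for the HET combination against IgG, and 0 to 1 for the HET combination against HET anti-PD1. Of the marker pairs, 105 had an adjusted p under 0.05, and 51 on deviations from group means.

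Of 51 named-gene results, 4 reversed: Col5a3 between genotypes under IgG (0.30, otherwise -0.69) and its anti-CD40 interaction (-0.055, otherwise 0.75) with the L number, and Col8a1 and Col15a1 between genotypes under anti-CD40 (-0.25 and -0.11, otherwise 1.03 and 0.36) with the marker scores; the cause was not tested. A replicate block called 0 genes; same-numbered tumors deviated with a median r of -0.023 over 94 pairs, against 0.014 over 298 other pairs, so the numbers do not pair the samples. With the block, 5 collagens in place of 8 had an unadjusted p under 0.05 for WT anti-PD1, and 4 in place of 10 for HET against WT under anti-PD1. Depth limits the 6 collagens below the filter and Col11a1, Col2a1 and Col9a1.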
